A study of Mus musculus with 18 samples.

Results

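The response of the uterus to estradiol was measured in ovariectomized mice that lacked Tsc2 in the uterus. It was read from 6 mRNA libraries, 3 from estradiol-treated mice (KO E2, replicates 1, 2 and 3) and 3 from mice without hormone (KO ovx, replicates 1, 2 and 4), chosen by genotype and treatment out of 18 libraries. Of the 25791 genes in the deposited table, 13898 entered the test, those that reached 1 FPKM (fragments per kilobase of transcript, scaled to the mapped total) in 3 or more libraries. All mice were of a mixed 129Sv and C57BL/6 strain and were 12 weeks old when the uterus was taken, and each library was made from a cross section. Both groups had lost their ovaries at 4 weeks of age, and the KO E2 mice then carried a 0.5 mg pellet of 17β-estradiol with 90 days of release for 8 weeks. The matching wild-type groups, WT E2 (replicates 1, 2 and 5) and WT ovx (replicates 1, 2 and 3), had the same surgery and pellet with Tsc2 in place. The labels name neither the Cre driver nor the deleted exons, so that cells outside the driver's range may keep the gene, and whether libraries came from separate mice is not stated. The p-values therefore measure the spread between samples only.

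TSC2 and its partner TSC1 form the complex that holds the small GTPase RHEB, and through it the growth kinase complex mTORC1, in check. Estradiol acts on the uterus through estrogen receptor α, a transcription factor encoded by Esr1, and is known for epithelial growth, for secretion into the lumen, for fluid uptake and for drawing leukocytes into the tissue. In a bulk cross section, more cells of a type and more RNA per cell cannot be told apart.

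Tsc2 was read at 2.42, 1.75 and 2.28 FPKM in KO E2 and at 2.98, 3.33 and 2.39 FPKM in KO ovx, listed here and throughout in the order of the replicate numbers. In WT it was at 2.73, 2.38 and 2.66 FPKM under E2 and at 3.24, 3.49 and 3.17 FPKM in ovx. The KO and WT libraries of a hormone state overlapped, and the value covers the whole gene, so that it does not separate deleted from undeleted transcripts. Within KO, Tsc2 did not pass the test between E2 and ovx (-0.31 ± 0.13 on the log2 scale, adjusted p = 0.0904, limma). Tsc1, at 1.26, 1.39 and 1.28 FPKM in KO E2 against 2.41, 2.33 and 1.97 FPKM in KO ovx, fell by 0.49 ± 0.13 (adjusted p = 0.0135), a call that was lost without KO ovx replicate 1 (adjusted p = 0.059). Tsc1 (adjusted p = 0.104) lost the call within set 3 as well, a set of libraries described in the next paragraph. Hoxa10, a homeobox gene that marks uterine mesenchyme, was present in every KO library (5.6, 5.28 and 4.77 FPKM in E2 and 35, 42.8 and 4.62 FPKM in ovx).

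The FPKM values of a library summed to between 392258 and 457719 in KO E2 and to between 216032 and 337255 in KO ovx. Read counts are not in an FPKM table, so the total depth is unknown. The smallest values come in multiples of a single read, and by these multiples the 18 libraries were clustered into 4 sets. The number of sets was chosen beforehand, the labels do not name them, and what they stand for was not tested. Pairs within a set had 3.56% to 19.6% of their low values at a common ratio. Pairs from different sets with the ovaries alike had 1.78% to 3.98%, so that the ranges overlap. KO E2 replicate 3 shared a set (set 3) with all KO ovx libraries, whereas KO E2 replicates 1 and 2 were in set 4, with WT libraries only. Relative to the deepest library of set 3, the depth read from these multiples was 0.372 for KO E2 replicate 3, the lowest of the set. For the KO ovx libraries it was 0.591, 0.687 and 0.539. KO E2 replicate 2 resembled the WT E2 libraries (mean Pearson r across genes 0.946) more than its own group (0.898). The mean r of KO ovx replicate 4 to its group was 0.921, against 0.958 and 0.950 for the other two, and it held the leukocyte and adipocyte values given below. List counts are also given where single libraries moved them and within set 3, where 1 KO E2 library meets 3 KO ovx libraries and the spread is taken from all groups.

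Estradiol moved 3767 of the tested genes in KO uteri at an adjusted p under 0.05 (27.1%). Of these, 2213 rose (15.9% of tested genes) and 1554 fell (11.2%). Each change is a difference of log2(FPKM + 1), which runs below the true fold where values are low, and the figure after ± is its standard error (SE) from the model. A change of 1 log2 or more was reached by 1479 genes that rose and 615 that fell, and one of 3 log2 or more by 236 and 29. At 36.3% of tested genes the E2 and ovx libraries did not overlap. The median difference over all tested genes was 0.07. Higher calls made up 58.7% of the total, 54.2% after median-ratio scaling and 39.5% after quantile normalization, which moved the median gene by -0.175. With KO ovx replicate 1 left out 917 genes fell and 1453 rose, with KO ovx replicate 2 left out 1062 and 1468, and with KO E2 replicate 1 left out 940 and 1665. In each of the 6 fits that left out 1 library, 1280 of the genes that rose and 738 of those that fell were called again. Within set 3, 961 of the higher and 339 of the lower calls were made again. The lists described below are read against these shares of 15.9% and 11.2%. For WT the shares over all tested genes were 32.3% higher and 15.2% lower. The genotypes differed at 4.05% with the KO response above and at 6.95% with it below. List counts are over tested members, and a member that reached 1 FPKM only through the group where it was high had to differ, so that the counts describe the members and support nothing further. For a gene named for its change in KO, the same values enter the difference between genotypes, so that test adds no separate support.

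The largest increases included serum amyloid, calprotectin and Sprr2 genes. The rule for naming the 15 largest changes each way required that E2 and ovx libraries not overlap. Their separation at these genes was therefore fixed in advance. Saa3, a serum amyloid A protein made at sites of inflammation, was at 23860.0, 1450.0 and 4780.0 FPKM in KO E2 against 5.05, 2.47 and 319.9 FPKM in KO ovx, and rose by 8.18 ± 1.37 (adjusted p = 0.00056). KO E2 replicate 1 was the highest and KO ovx replicate 4 stood far above its group. Its relatives Saa1 and Saa2, near-identical copies whose reads cannot be assigned with certainty, rose by 7.29 ± 1.18 and 7.24 ± 1.18 with the same order of libraries. S100a8 and S100a9 encode the calprotectin subunits, the most abundant proteins of the neutrophil cytosol. S100a8 was at 7663, 708 and 629 FPKM under E2 and at 0.971, 1.08 and 122 FPKM in ovx, and rose by 7.57 ± 1.28 (adjusted p = 0.000579). S100a9 followed it library by library, with a change of 7.58 ± 1.21. Hp, the hemoglobin scavenger haptoglobin, was at 1783, 57.6 and 1057 FPKM against 0.54, 0.411 and 26.4 FPKM (6.94 ± 1.23, adjusted p = 0.000861), with KO E2 replicate 2 the lowest of its group. Slpi, a secreted inhibitor of leukocyte elastase, was at 484, 38 and 857 FPKM against 0.448, 1.02 and 7.45 FPKM (6.44 ± 0.89, adjusted p = 9.96e-05, limma), again with replicate 2 the lowest of the E2 group. Ccl8, a chemokine for monocytes, went from 1.03, 1.64 and 10.8 to 615, 215 and 204 FPKM (6.24 ± 0.88, adjusted p = 0.000121). Ly6d, a surface protein of stratified epithelium and lymphocytes, and Gm3903, a predicted gene, rose by 6.57 ± 0.77 and 6.21 ± 1.00. Each of these calls was made without any single library. Saa3, S100a9 and S100a8 (adjusted p from 0.0522 to 0.0842) lost the call within set 3. LOC100504272, which met the naming rule as well, was listed at 0 in all 3 KO ovx libraries and at 4906, 4241 and 3678 FPKM in KO E2, and no fold is given for it. WT ovx held it at 3028, 2961 and 5308 FPKM, and a value of 0 in a table without counts can be a failed estimate.

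**Figure D1:**
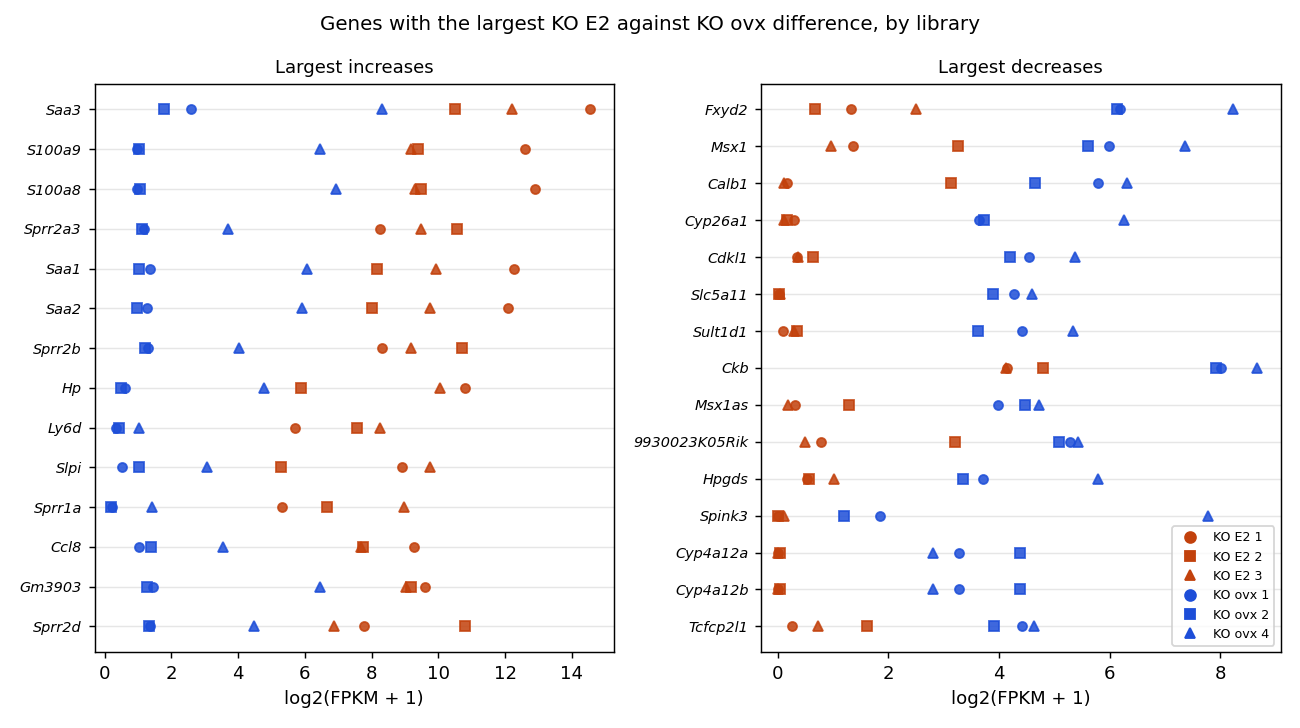
Level of the genes with the largest differences in each KO library, as log2(FPKM + 1) on the horizontal axis; orange symbols are KO E2 and blue symbols KO ovx, with the shape giving the replicate. The groups do not overlap at any gene shown, which the naming rule required, and KO ovx replicate 4 (blue triangle) lies nearest to KO E2 for Saa3 and S100a8; LOC100504272 is not drawn.

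The Sprr2 genes, a tandem family on chromosome 3 whose products are cross-linked into the cornified envelope of stratified epithelia and which are textbook estrogen-induced genes of the mouse uterus, all rose. Of 12 listed members 11 were in the table and were tested, and all 11 were called, with a median difference of 5.96 against 0.07 for all genes. As near-identical copies they share reads, so that the members do not count as separate observations. RefSeq promoters (GRCm38.p6) were matched for 10 Sprr2 symbols, and 7 of them hold the letters of an AP-1 site, TGANTCA (the same on both strands), in the 250 bases before the start, as do 6.75% of all 32851 promoters. The stretches of Sprr2b, Sprr2d, Sprr2e and Sprr2f, all on the plus strand, are shown because they carry the letters at nearly the same place, with the match in capitals. The windows of Sprr2a1, Sprr2a2 and Sprr2a3, the last of which had the largest change of the family, do not hold the letters.
Sprr2b (chr3:92316455-92316704): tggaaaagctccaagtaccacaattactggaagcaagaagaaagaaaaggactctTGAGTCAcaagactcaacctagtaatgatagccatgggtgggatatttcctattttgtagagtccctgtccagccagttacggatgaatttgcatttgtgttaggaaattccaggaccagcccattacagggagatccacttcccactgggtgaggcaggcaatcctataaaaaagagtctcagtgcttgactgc
Sprr2d (chr3:92338890-92339139): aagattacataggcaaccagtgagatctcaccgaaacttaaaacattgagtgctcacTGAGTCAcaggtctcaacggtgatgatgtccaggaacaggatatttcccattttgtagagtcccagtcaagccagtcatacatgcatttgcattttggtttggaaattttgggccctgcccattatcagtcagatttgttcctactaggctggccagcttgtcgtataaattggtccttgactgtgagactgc
Sprr2e (chr3:92351893-92352142): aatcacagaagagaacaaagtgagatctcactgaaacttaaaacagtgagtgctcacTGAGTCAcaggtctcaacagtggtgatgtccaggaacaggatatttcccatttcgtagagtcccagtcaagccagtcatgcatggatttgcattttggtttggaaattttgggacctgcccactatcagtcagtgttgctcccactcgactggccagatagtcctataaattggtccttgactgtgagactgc
Sprr2f (chr3:92364937-92365186): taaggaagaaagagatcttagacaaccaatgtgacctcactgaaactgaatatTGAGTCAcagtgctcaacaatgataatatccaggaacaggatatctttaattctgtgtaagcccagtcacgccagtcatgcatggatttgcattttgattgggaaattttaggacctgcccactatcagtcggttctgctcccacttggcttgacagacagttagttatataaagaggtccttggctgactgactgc
The match began 195, 193, 193 and 197 bases before the start. Whether AP-1 acts at these letters was not tested. A full estrogen response element, searched as the arm GGTCA followed after any 3 bases by TGACC (the same on both strands), was in none of these 4 windows and in 0.0639% of all promoters. Sprr2b was at 319, 1667 and 579 FPKM in KO E2 against 1.46, 1.33 and 15.3 FPKM in KO ovx, and rose by 7.22 ± 1.42 (adjusted p = 0.00187). Sprr2f was at 278, 2298 and 156 FPKM against 2.14, 2.05 and 40.4 FPKM (5.98 ± 1.40, adjusted p = 0.00581). For both genes KO E2 replicate 2 was the highest library and KO ovx replicate 4 the highest of the ovx group. The groups did not overlap, which the naming rule required of Sprr2b. Sprr2a3, Sprr2d and Sprr2e rose by 7.43 ± 1.50, 6.10 ± 1.32 and 5.96 ± 1.32. Within set 3 the test called 0 of the 11 (limma), at a median of 4.50. Among 14 tested of 26 listed genes of squamous epithelium 6 rose and 0 fell, led by Sprr1a, another envelope precursor, which went from 0.174, 0.137 and 1.68 to 39, 99.5 and 499 FPKM (6.37 ± 1.44, adjusted p = 0.00484). The squamous count was 2 without KO E2 replicate 2 or 3 or without KO ovx replicate 1 or 2, and 3 within set 3.

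The same window was read for the serum amyloid genes, where Saa3 and Saa1 hold the letters TTGCNNAA (TTNNGCAA on the other strand), part of a C/EBP site, as do 9.56% of all promoters. They are shown because both genes were among the largest increases. Cebpb, a C/EBP factor, rose from 7.05, 5.7 and 17.3 to 116, 41 and 46.2 FPKM (2.62 ± 0.63, adjusted p = 0.00671, limma), a call lost within set 3. Whether C/EBP factors act on Saa3 or Saa1 was not tested. Both lie on the minus strand of chromosome 7 and are written 5′ to 3′ with the match in capitals.
Saa3 (chr7:46715677-46715926): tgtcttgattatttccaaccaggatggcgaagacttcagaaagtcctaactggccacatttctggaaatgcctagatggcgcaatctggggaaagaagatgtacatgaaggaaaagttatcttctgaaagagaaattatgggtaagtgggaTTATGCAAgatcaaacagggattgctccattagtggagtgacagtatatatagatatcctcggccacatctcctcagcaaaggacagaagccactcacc
Saa1 (chr7:46742981-46743230): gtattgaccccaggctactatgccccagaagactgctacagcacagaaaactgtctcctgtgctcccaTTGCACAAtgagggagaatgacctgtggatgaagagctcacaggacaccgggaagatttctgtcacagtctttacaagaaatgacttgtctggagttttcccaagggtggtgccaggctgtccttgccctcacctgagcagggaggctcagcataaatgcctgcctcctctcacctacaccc
The matches began 99 and 182 bases before the start, and neither window held the full estrogen response element.

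The largest decreases were of genes that were high in KO ovx. Fxyd2, which encodes a regulatory subunit of the sodium pump, was at 1.5, 0.593 and 4.62 FPKM in KO E2 against 71.4, 69.4 and 297 FPKM in KO ovx, and fell by 5.35 ± 0.50 (adjusted p = 6.22e-06). Cyp26a1, which degrades retinoic acid, was at 0.22, 0.129 and 0.0872 against 11.4, 12.2 and 75.8 FPKM (-4.34 ± 0.52, adjusted p = 3.21e-05). Slc5a11, a sodium-coupled inositol transporter, was at 0.0216, 0.0114 and 0.0217 against 18.4, 13.9 and 23 FPKM (-4.23 ± 0.54, adjusted p = 5.35e-05). For Fxyd2 and Cyp26a1, KO ovx replicate 4 was the highest library by far, while for Slc5a11 the 3 ovx libraries lay close together. WT libraries held these 3 genes at low levels in both states, with Fxyd2 at 0.846, 1.58 and 0.857 FPKM in WT ovx and 1.2, 1.99 and 0.608 FPKM in WT E2. In those libraries Cyp26a1 was at 0.174 FPKM or less and Slc5a11 at 0.151 FPKM or less. The KO response was below the WT response for each, by -5.43 ± 0.71, -4.21 ± 0.74 and -4.13 ± 0.76 (adjusted p = 0.00152, 0.00492 and 0.00586, limma, test of the difference between genotypes). The genes were named for their large fall in KO, whose values enter this difference, so the test adds no separate support.

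**Figure D2:**
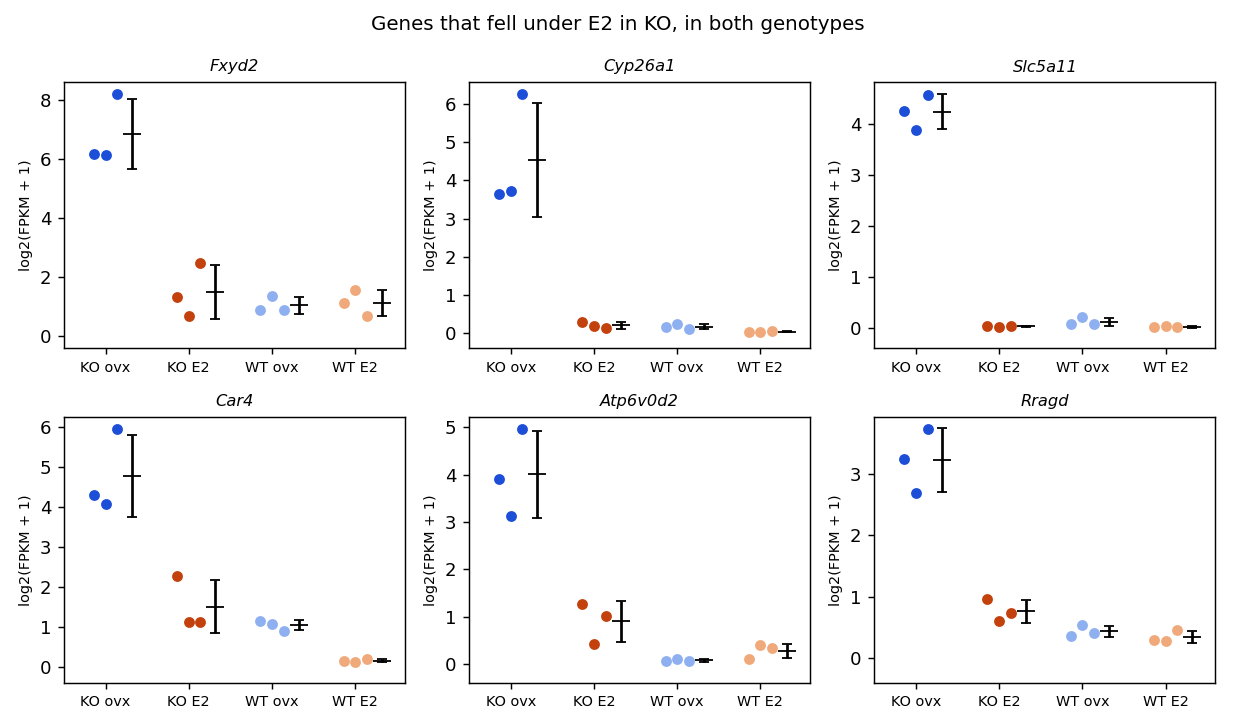
Levels of Fxyd2, Cyp26a1, Slc5a11, Car4, Atp6v0d2 and Rragd as log2(FPKM + 1) in each library of 4 groups, with the mean and SD (n = 3) in black beside the points. All 3 KO ovx libraries lie above every KO E2, WT ovx and WT E2 library in each panel. For Fxyd2, Cyp26a1 and Slc5a11 the naming rule required this between the KO groups.

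Msx1, a homeobox transcription factor of the uterine epithelium, was at 1.57, 8.57 and 0.938 FPKM in KO E2 against 62.7, 48 and 162 FPKM in KO ovx (-4.46 ± 0.68, adjusted p = 0.000254). Its antisense transcript Msx1as had a change of -3.79 ± 0.67, and since the counting is not stated to use strand, reads of the pair cannot be told apart. Calb1, which encodes the calcium buffer calbindin-D28K, was at 0.126, 7.77 and 0.0788 against 54.3, 24 and 78 FPKM (-4.44 ± 1.04, adjusted p = 0.00588). Ckb, the brain-type creatine kinase and a classical estrogen-induced protein of the rodent uterus, was at 16.8, 26.9 and 16.4 against 258, 241 and 402 FPKM. It fell by 3.84 ± 0.53 (adjusted p = 9.48e-05, limma). Ckb did not rise in WT either, at 64.2, 63.7 and 16.5 FPKM in E2 against 65.8, 81 and 73.3 FPKM in ovx (-0.82, adjusted p = 0.21, limma). For Msx1 and Calb1, KO E2 replicate 2 was the highest of its group. Sult1d1, a sulfotransferase, Hpgds, a prostaglandin D synthase, Tcfcp2l1, an epithelial transcription factor, the kinase gene Cdkl1 and 9930023K05Rik fell by 4.22, 3.59, 3.45, 4.25 and 3.77 on the log2 scale. Cyp4a12a and Cyp4a12b, fatty acid hydroxylases and near-identical copies, both fell by 3.46. Spink3, a trypsin inhibitor made by uterine glands and other epithelia, was at 0, 0 and 0.0743 FPKM against 2.58, 1.29 and 218 FPKM, so that 1 ovx library held most of it. Its change of -3.57 ± 1.08 (adjusted p = 0.0242) was lost without KO E2 replicates 1 or 3 (adjusted p from 0.0501 to 0.0626). The other 14 of the 15 largest decreases were called without any single library. Calb1 and Spink3 (adjusted p from 0.0751 to 0.256) lost the call within set 3.

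The estrogen receptor gene itself fell. Esr1 was at 0.612, 1.99 and 1.22 FPKM in KO E2 against 9.34, 7.54 and 12.5 FPKM in KO ovx, and fell by 2.27 ± 0.33 (adjusted p = 0.000152), with no overlap. In WT, Esr1 went from 12.4, 15.1 and 13.8 to 4.95, 2.99 and 10 FPKM (-1.20 ± 0.33, adjusted p = 0.00786), and the 2 responses differed by -1.06 ± 0.46 (adjusted p = 0.147), which did not pass. Pgr, the progesterone receptor gene, did not pass in KO (2.25, 3.13 and 1.52 against 5.28, 3.95 and 2.74 FPKM, -0.59 ± 0.41, adjusted p = 0.296). Among 14 tested steroid receptors and cofactors 1 rose and 5 fell, with a median of -0.53. The one that rose was Greb1, a direct target and cofactor of the estrogen receptor, from 0.149, 0.317 and 1.19 to 3.04, 4.26 and 2.38 FPKM (1.48 ± 0.36, adjusted p = 0.00716). Gata2 and Nr2f2, transcription factors of the progesterone pathway in epithelium and stroma, fell by 1.72 ± 0.25 and 1.41 ± 0.25. The lower count of this list was 3 without KO E2 replicate 1 or 2 or KO ovx replicate 1, and the higher count 2 without KO E2 replicate 2. Greb1 and Nr2f2 (adjusted p from 0.0904 to 0.177) lost the call within set 3, where the list had 1 higher and 2 lower calls.

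Genes known to be induced by estrogen in the uterus rose in part. Of 30 such genes 12 rose, 2 fell (Ckb and Il17rb) and 16 were not called, with a median of 1.46. Among the 12 were Sprr2b, Sprr2f, Sprr2a and Sprr2e, already counted in the Sprr2 family, whose members share reads and are not separate observations. They are in the WT count below as well. C3, the complement component secreted by estrogen-treated uterine epithelium, was at 114, 317 and 190.2 FPKM against 2.74, 2.79 and 26.4 FPKM (4.72 ± 0.99, adjusted p = 0.00301). Inhbb, an activin subunit, went from 0.395, 0.6 and 2.28 to 34.8, 18.4 and 9.83 FPKM (3.33 ± 0.50, adjusted p = 0.000214). Neither gene's groups overlapped, and KO ovx replicate 4 was the highest ovx library for both. Il17rb, an interleukin-17 receptor, fell from 5.45, 4.37 and 7.29 to 0.077, 0.338 and 0.0885 FPKM (-2.50 ± 0.58). Lcn2, lipocalin 2, rose by 5.84 ± 1.50 (adjusted p = 0.0101) and lost the call without KO ovx replicates 1 or 2 (adjusted p from 0.0503 to 0.0504). Ltf, the iron-binding lactoferrin, was at 192, 1665 and 29.6 FPKM under E2 and 1.65, 1.39 and 52.7 FPKM in ovx and was not called (4.94 ± 2.29, adjusted p = 0.123). Its KO E2 replicate 3 lay below KO ovx replicate 4, and KO E2 replicate 2 held most of the signal. Muc1, the lumenal mucin, was at 8.84, 83.9 and 2.28 against 7.21, 5.2 and 15.8 FPKM, overlapping and not called (0.56 ± 0.89, adjusted p = 0.672). In WT 20 of the 30 rose, against 32.3% of all tested genes, and 1 fell. For 4 members the KO response was below that of WT, Muc1 among them (-4.26 ± 1.26, adjusted p = 0.0414, limma), against 6.95% of all tested genes. The Muc1 difference was called in 2 of the 12 single-library omissions, those of KO E2 replicate 2 and KO ovx replicate 2. The number of 4 was 10 without KO E2 replicate 2, 0 without KO E2 replicate 1, KO ovx replicate 4, WT E2 replicate 1 or WT ovx replicate 1, and from 1 to 4 without each of the others. Within set 3, 1 of the 30 genes rose and 1 fell, and C3, Il17rb, Inhbb and Lcn2 (adjusted p from 0.0721 to 0.343) were among those that lost the call.

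Genes of mucosal secretion rose in part. Of 15 tested members of 23 listed 4 rose and 1 fell (median 1.43). In WT 10 of them rose (median 3.50), against 32.3% of all tested genes. At 6 the KO response was below that of WT, against 6.95% of all tested genes. The number of 6 was 2 without KO E2 replicate 1 or 3, KO ovx replicate 4 or any WT library other than WT E2 replicate 1, where it was 3. The genes that rose were Slpi, Lcn2, Lyz2 and Clu, the secreted chaperone clusterin, from 4.93, 8.46 and 34.4 to 208, 195 and 82.3 FPKM (3.58 ± 0.71, adjusted p = 0.00191). Muc4, a membrane mucin, was at 0.624, 18.1 and 0.346 against 0.0548, 0.116 and 1.87 FPKM and was not called (1.21 ± 1.05, adjusted p = 0.416). KO E2 replicate 2 alone held a level like that of WT E2 (16.4, 17.3 and 51.8 FPKM). The higher count was 2 without KO ovx replicate 1 or 2, and the test called 1 secretion gene higher within set 3, at a median of 0.03, and 2 with a term for the set. Clu (adjusted p = 0.129), Lcn2 (adjusted p = 0.343) and Lyz2 (adjusted p = 0.119) were not called within set 3.

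Transporters of the uterine lumen changed in both directions. Of 15 tested channels and carriers of uterine fluid 3 rose and 4 fell (median -0.82). Fxyd5, a sodium pump regulator also known as dysadherin, went from 1.67, 2.49 and 1.71 to 54.3, 13.5 and 23.4 FPKM (3.20 ± 0.45, adjusted p = 0.000131). Aqp3, an aquaglyceroporin, went from 0.0324, 0.112 and 0.155 to 6.47, 1.27 and 51.4 FPKM (3.13 ± 0.70, adjusted p = 0.00454), with KO E2 replicate 3 by far the highest. Besides Fxyd2, the epithelial sodium channel subunit Scnn1a fell, from 3.38, 2.54 and 4.78 to 0.284, 0.268 and 0.241 FPKM (-1.82 ± 0.34, adjusted p = 0.00115). The number of fluid genes called went from 7 to 4 without KO ovx replicate 1, with 2 lower, and within set 3 it was 2 higher and 1 lower. Car4, a membrane-bound carbonic anhydrase, fell from 18.7, 15.8 and 60.9 to 3.81, 1.17 and 1.18 FPKM (-3.27 ± 0.38, adjusted p = 2.38e-05), and Wfdc2, a secreted whey acidic protein, from 371, 264 and 578 to 19.6, 105 and 90.9 FPKM (-2.72 ± 0.51, adjusted p = 0.00129). Scnn1a and Wfdc2 (adjusted p from 0.0696 to 0.115) lost the call within set 3.

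**Figure D3:**
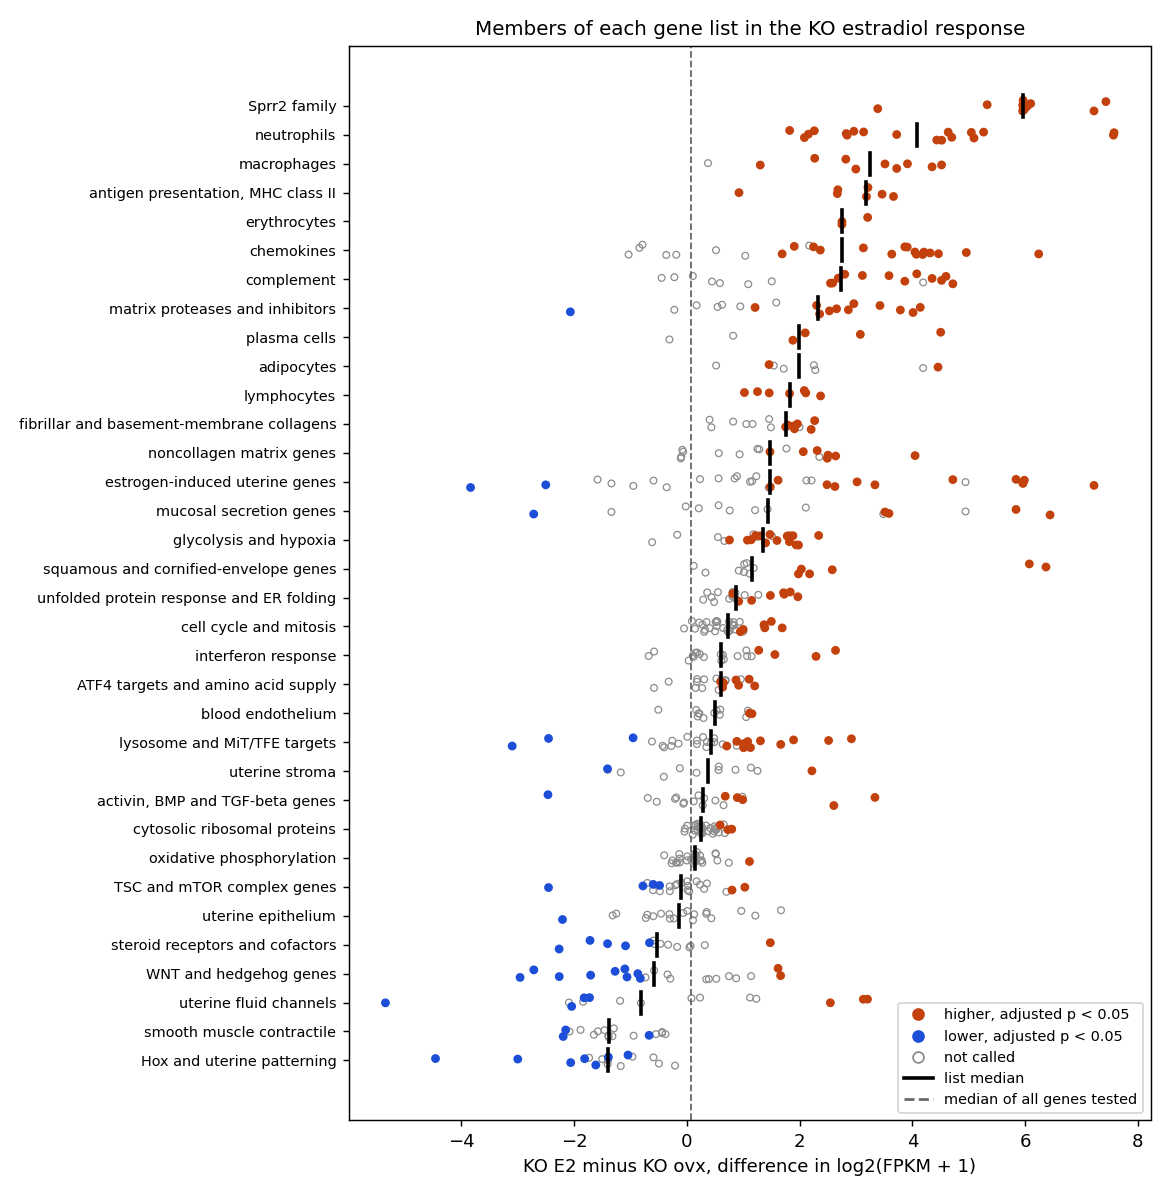
Difference between KO E2 and KO ovx in log2(FPKM + 1) for each tested member of 34 gene lists, ordered by list median; filled points passed an adjusted p of 0.05, open points did not, black bars are list medians and the dashed line the median of all tested genes. Sprr2 and leukocyte lists lie at the top, and Hox, smooth muscle, fluid channel and WNT lists at the bottom.

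Neutrophil and MHC class II genes rose in KO uteri under estradiol, and most macrophage genes did. All 18 listed neutrophil markers were tested and rose (median 4.08), and their summed level was 17650.0, 1572 and 1487 FPKM in KO E2 against 4.34, 6.08 and 269.5 FPKM in KO ovx, where replicate 4 held most. The granule genes Camp, the cathelicidin, and Ngp rose, Camp from 0, 0.0204 and 1.97 FPKM in KO ovx to 162, 22.9 and 29.8 FPKM in KO E2 and Ngp from 0.0201, 0.0778 and 4.81 to 286, 14.8 and 49.7 FPKM, by 5.09 ± 0.54 and 5.04 ± 0.78 (adjusted p = 1.2e-05 and 0.000272). Both were highest in KO E2 replicate 1, and the groups did not overlap. Il1b, the inflammatory interleukin-1β, went from 0.0929, 0.0804 and 2.57 to 163, 42.9 and 32.1 FPKM (5.26 ± 0.58, adjusted p = 1.71e-05), and Csf3r, the receptor of the granulocyte growth factor, from 0.104, 0.104 and 0.264 to 13.5, 5.51 and 10 FPKM (3.13 ± 0.23, adjusted p = 1.92e-06). The neutrophil count stayed between 16 and 18 without any single library. Within set 3 it was 7, at a median of 3.08, and Ngp lost the call (adjusted p = 0.0525).

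In WT 5 of the 18 neutrophil markers rose (median 0.76), S100a8 and S100a9 among them, against 32.3% of all tested genes. The KO response was above the WT response at 9, against 4.05% of all tested genes. Examples were Camp (4.67 ± 0.76, adjusted p = 0.0038), Csf3r (2.26 ± 0.33, adjusted p = 0.00251) and the elastase gene Elane (2.01 ± 0.35, adjusted p = 0.00484). WT libraries held Camp at 0.141, 0.844 and 0.371 FPKM under E2. Camp reached 1 FPKM in KO libraries only, so it entered the test through the group where it was high. The count of 9 and these differences therefore describe the members and add no separate support. For S100a8, which rose in WT as well, the difference of 1.88 ± 1.80 did not pass (adjusted p = 0.525). The number of neutrophil markers with a larger KO response ran from 6 to 11 over the 12 single-library omissions, with 6 where KO ovx replicate 1, WT E2 replicate 1 or WT ovx replicate 1 was left out.

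Of 10 tested macrophage markers among 12 listed 9 rose (median 3.25), with sums of 668, 592 and 3141 FPKM in KO E2 and 30.9, 47 and 552 FPKM in KO ovx. Most of the summed level was Lyz2, which shares reads with its near-identical copy Lyz1 and was at 14.4, 29.1 and 537 FPKM in KO ovx (3.51 ± 1.25, adjusted p = 0.0496), a call that was lost without KO E2 replicates 1, 2 or 3 or KO ovx replicates 1 or 2 (adjusted p from 0.0505 to 0.217). C1qa and C1qb, complement subunits made by macrophages, rose by 4.35 ± 0.57 and 4.52 ± 0.64, C1qa from 5.78, 6.04 and 3.27 to 85.4, 86.3 and 228 FPKM. Csf1r, the receptor for the macrophage growth factor, went from 1.3, 1.08 and 0.842 to 28.7, 16.3 and 57.3 FPKM (3.91 ± 0.45, adjusted p = 2.3e-05). KO E2 replicate 3 was the highest library for all 3 genes, and here KO ovx replicate 4 was the lowest. Within set 3, 8 of the 10 were called, at a median of 4.23. The Csf1r response was above that of WT (2.77 ± 0.64, adjusted p = 0.0165).

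All 7 MHC class II genes rose (median 3.18), among them Cd74, the invariant chain, from 37.4, 51.4 and 16.4 to 160.4, 967 and 454 FPKM (3.66 ± 0.98, adjusted p = 0.0128), and H2-Ab1 (3.46 ± 0.92, adjusted p = 0.0123). KO E2 replicate 2 was highest for both and KO E2 replicate 1 lowest of its group. None of the 7 was called within set 3 (adjusted p = 0.141 for Cd74 and 0.117 for H2-Ab1, list median 3.57) or without KO E2 replicate 2 and KO ovx replicate 4 together (median 2.27). In WT 1 of the 7 rose, and at none did the test between genotypes pass (limma). Of 15 lymphocyte markers listed 7 reached the filter and were called higher, and the other 8 were not tested. Of those, Ms4a1 of B cells was above 1 FPKM in KO E2 replicate 3 alone and Cd8a of T cells in KO E2 replicate 2 alone, and Ncr1, Klrb1c, Gzma, Gzmb and Prf1 stayed at or below 0.604 FPKM in all 6 libraries. Cd3e of T cells went from 0.259, 0.293 and 0.0729 to 3.03, 4.25 and 2.62 FPKM (1.82 ± 0.28, adjusted p = 0.000268), and Cd79b of B cells from 0.152, 0.156 and 0.312 to 1.56, 2.18 and 28.6 FPKM (2.37 ± 0.60, adjusted p = 0.00939), the latter highest in KO E2 replicate 3. Of 6 tested plasma cell genes among 8 listed 4 rose, led by Igj, the joining chain of secreted antibodies, from 6.19, 9.95 and 2.4 to 72.9, 65.3 and 632 FPKM (4.50 ± 1.03, adjusted p = 0.00539). The 3 tested hemoglobin genes rose as well (Hbb-b1 from 12, 5.64 and 9.43 to 141, 25.9 and 183 FPKM, 3.21 ± 0.58). Hemoglobin RNA did not follow the leukocyte genes library by library. KO ovx replicate 4 stood far above its group in the neutrophil and macrophage sums but not in hemoglobin. The part of blood in the change of the leukocyte genes was not tested.

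**Figure D4:**
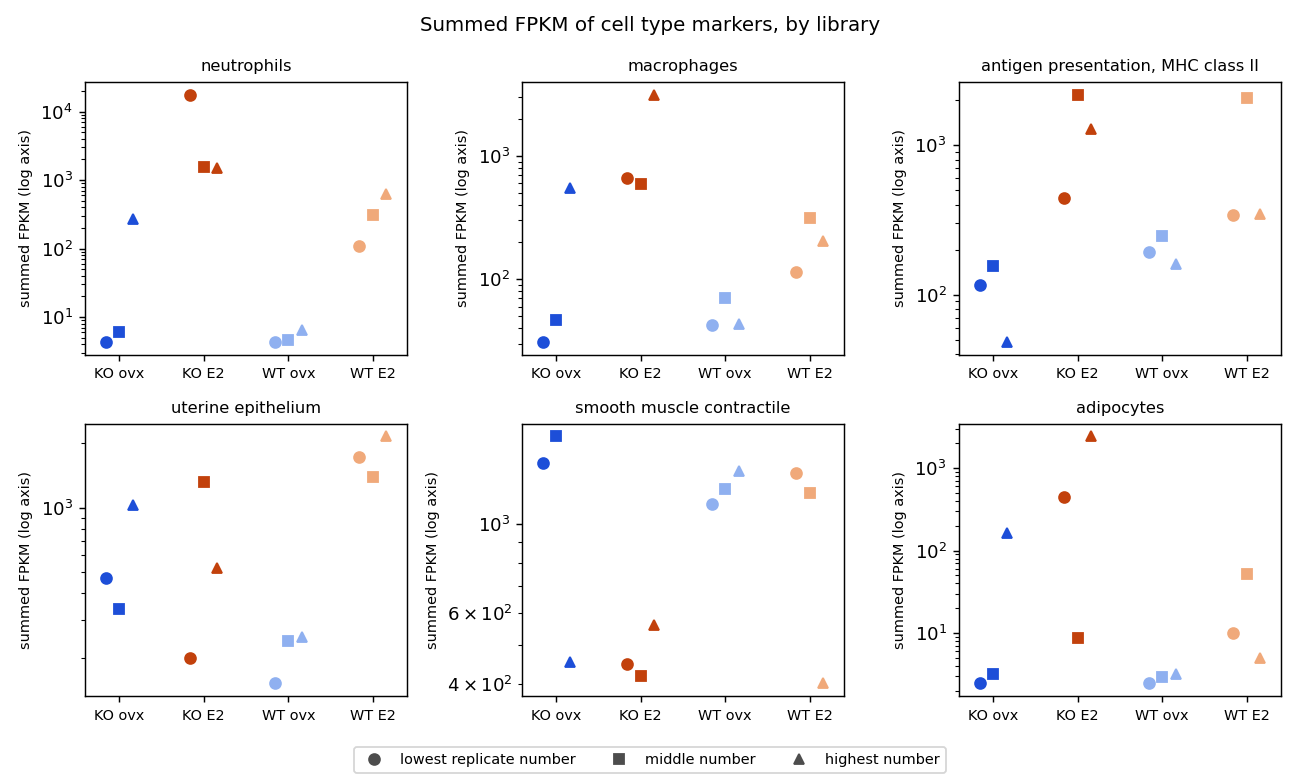
Summed FPKM of 6 marker lists in each library, on log axes, for KO ovx, KO E2, WT ovx and WT E2; symbols mark the replicate number within a group. Neutrophil sums in KO E2 lie above those of the other libraries drawn, whereas epithelial, smooth muscle and adipocyte sums of the KO groups overlap.

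Among signals that call leukocytes, 16 of 24 chemokines rose and none fell (median 2.75). With 1 library left out, 15 or 16 were called higher, and without KO E2 replicate 2 another 2 were called lower. Cxcl2 and Cxcl3, which attract neutrophils, rose by 4.96 ± 0.97 and 4.46 ± 0.76, Cxcl2 from 0.0553, 0.0284 and 7.53 to 423, 47.7 and 12.4 FPKM. Both were highest in KO E2 replicate 1. Ccl2, the monocyte attractant, went from 0.203, 0.323 and 2.39 to 101, 19 and 15.6 FPKM (4.20 ± 0.70, adjusted p = 0.000553). Within set 3, 8 chemokines rose, and Cxcl2, Cxcl3 and Ccl2 (adjusted p from 0.0808 to 0.212) lost the call. Of 20 complement genes 12 rose and none fell (median 2.74), and 7 rose within set 3. Cfb, complement factor B, went from 1.11, 0.794 and 5.42 to 41.2, 224 and 35 FPKM (4.59 ± 0.76, adjusted p = 0.000521), highest in KO E2 replicate 2. Of 21 interferon response genes 4 rose, a share near the 15.9% over all genes (median 0.61). The largest rise was that of Bst2, an antiviral membrane tether, from 30.4, 17.4 and 12.2 to 123, 231 and 62.6 FPKM (2.63 ± 0.42, adjusted p = 0.000405, limma). The interferon count was 1 without KO E2 replicate 2 or KO ovx replicate 2, 2 without KO ovx replicate 1 and 0 within set 3. Cfb and Bst2 (adjusted p from 0.0836 to 0.0982) lost the call there. In WT 17 of the 21 rose, against 32.3% of all tested genes. The KO response was below the WT response at 4 of the 21, against 6.95% of all tested genes. That count of 4 was 6 without KO E2 replicate 2, 0 without KO E2 replicate 1, WT E2 replicate 5 or WT ovx replicate 1, 1 without KO ovx replicate 1 or 4 or WT ovx replicate 2 or 3, and 2 without WT E2 replicate 2.

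Matrix-degrading genes rose in part. Of 18 matrix proteases and inhibitors 11 rose and 1 fell (median 2.33), with 9 to 14 called without any single library and 5 higher within set 3. Mmp7, matrilysin of the epithelium, was at 18.6, 112 and 24 FPKM against 0.345, 0.149 and 5.58 FPKM (4.14 ± 0.87, adjusted p = 0.00302), highest in KO E2 replicate 2. Mmp13, a collagenase, was at 99.6, 2.19 and 21.8 against 0.0157, 0.00671 and 1.73 FPKM (3.79 ± 0.80, adjusted p = 0.00317), highest in replicate 1 and lowest of the E2 group in replicate 2. Timp1, a protease inhibitor, went from 0.441, 0.455 and 1.24 to 62.4, 9.64 and 28.1 FPKM (4.01 ± 0.58, adjusted p = 0.000166). Mmp9, the gelatinase that neutrophils and macrophages carry, went from 1.42, 1.36 and 0.736 to 32.5, 4.13 and 26.1 FPKM (2.96 ± 0.51), and its response was above that of WT (3.46 ± 0.72, adjusted p = 0.0112). Timp3, another inhibitor, fell from 57, 47.1 and 15.7 to 8.32, 6.19 and 8.41 FPKM (-2.07 ± 0.54, adjusted p = 0.0111), a call that was lost without KO ovx replicate 1 (adjusted p = 0.0588). Mmp7, Mmp13 and Timp3 (adjusted p from 0.101 to 0.152) lost the call within set 3.

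Structural matrix genes rose in part, with KO E2 replicate 2 set apart. Of 17 noncollagen matrix genes 7 rose and none fell (median 1.47), and 11 were called without KO E2 replicate 2. Thbs2, thrombospondin 2, was at 161, 15.1 and 53.9 FPKM against 1.89, 1.55 and 3.32 FPKM (4.05 ± 0.56, adjusted p = 0.000111). Fn1, fibronectin, was at 42.5, 9.27 and 46 against 5.3, 3.24 and 2.27 FPKM (2.64 ± 0.67, adjusted p = 0.00927), and Lox, the collagen cross-linking oxidase, at 21.1, 5 and 29.9 against 2.82, 1.82 and 1.1 FPKM (2.50 ± 0.51). In all 3 genes replicate 2 was the lowest E2 library but above every ovx library. Of 15 collagens 7 rose (median 1.75), a number that went to 10 without KO E2 replicate 2, to 2 without KO E2 replicate 1 or 3, to 3 with KO ovx replicate 4 left out and to 4 with KO ovx replicate 1 left out. Col1a1, the main fibrillar collagen, was at 152, 30.9 and 131 FPKM against 29.4, 27.2 and 6.68 FPKM (2.20 ± 0.79, adjusted p = 0.0498) and lost the call without KO E2 replicates 1 or 3 or KO ovx replicates 1, 2 or 4 (adjusted p from 0.063 to 0.167). Within set 3, 5 noncollagen genes and 2 collagens were called, and Fn1 and Col1a1 (adjusted p from 0.075 to 0.184) lost the call. In WT no collagen rose and 3 of the 15 fell, against 32.3% and 15.2% of all tested genes, at a median of 0.16. The KO response was above the WT response at 1 collagen, against 4.05% of all tested genes. That count was 7 without KO E2 replicate 2. It was 0 without KO E2 replicate 1, KO ovx replicate 4, WT E2 replicate 5 or WT ovx replicate 1 or 2. Among activin, BMP and TGF-β genes 5 of 19 rose and 1 fell (median 0.28). Tgfb1 rose from 1.25, 1.21 and 1.25 to 15.9, 9.05 and 13.8 FPKM (2.60 ± 0.24, adjusted p = 4.73e-06), with both groups tight and apart, and more than in WT (1.24 ± 0.33, adjusted p = 0.0297), a difference called in 4 of the 12 single-library omissions, those of KO E2 replicate 2, KO ovx replicate 2 and WT E2 replicates 2 and 5. Within set 3, 1 gene of this list was called.

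Some patterning genes fell. Of 21 WNT and hedgehog genes 9 fell and 2 rose (median -0.58), and without KO E2 replicate 1 or KO ovx replicate 2 the number called went from 11 to 7. The higher count was 0 without KO ovx replicate 2 and 1 without any other library save KO E2 replicate 2. Wnt11, a secreted ligand, was at 0.0903, 0.0432 and 0.311 FPKM against 9.3, 5.6 and 9.36 FPKM (-2.96 ± 0.34, adjusted p = 2.18e-05). Ihh, the epithelial hedgehog ligand, was at 0.0828, 0.0188 and 0.39 against 3.61, 2.93 and 8.43 FPKM (-2.27 ± 0.61, adjusted p = 0.0131). Gli1 and Ptch1, readouts of hedgehog signaling in stroma, fell by 2.72 ± 0.59 and 1.27 ± 0.30, Gli1 from 10.4, 17.5 and 1.23 to 0.259, 0.104 and 0.192 FPKM. For both, KO ovx replicate 4 was the lowest ovx library, though above all E2 libraries. Lgr5, a WNT target and stem cell marker, fell from 0.814, 0.719 and 1.54 to 0.0554, 0.0416 and 0.174 FPKM (-0.87 ± 0.20). Gli1 fell in WT too, from 18.2, 18.2 and 17.1 to 0.32, 0.191 and 0.0617 FPKM (-3.99, adjusted p = 0.000183). Of 16 tested Hox and patterning genes 7 fell and none rose (median -1.41). Besides Msx1 these included Sox17, a factor of epithelium and endothelium, from 24.7, 26.4 and 43.1 to 2.16, 5.97 and 1.74 FPKM (adjusted p = 0.000327), Msx2 (-2.06 ± 0.48) and Emx2 (-1.39 ± 0.34). Hoxa10 did not pass (-1.74 ± 0.84, adjusted p = 0.138), with KO ovx replicate 4 as low as the E2 libraries. Within set 3, 1 WNT and hedgehog gene and 3 patterning genes fell, and Gli1, Ptch1, Ihh, Lgr5 and Msx2 (adjusted p from 0.112 to 0.241) lost the call.

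No epithelial marker listed was called higher in KO. Of 20 genes of uterine epithelium 1, the claudin gene Cldn3, fell (median -0.15), while the summed level was 199, 1320.0 and 526 FPKM in KO E2 against 469.9, 339 and 1026 FPKM in KO ovx. KO E2 replicate 2 was the highest of these 6 libraries and KO E2 replicate 1 the lowest, and the groups overlapped. Cdh1, the adhesion protein E-cadherin, was at 3.23, 33.5 and 8.94 FPKM against 23.7, 15.2 and 48.2 FPKM (-1.25 ± 0.64, adjusted p = 0.162), and the keratin Krt8 at 18.5, 114 and 76 against 34.6, 23.8 and 93.6 FPKM (0.35 ± 0.69, adjusted p = 0.737). Cldn3 was at 9.3, 79.7 and 8.13 against 89.6, 56.8 and 145 FPKM (-2.22 ± 0.61, adjusted p = 0.0154) and lost the call without KO E2 replicates 1 or 3 (adjusted p from 0.0676 to 0.0769) and within set 3 (adjusted p = 0.0516). Without KO E2 replicate 2, 6 epithelial genes were called and the median was -0.76. In WT 18 of the 20 rose (median 2.58), against 32.3% of all tested genes. The KO response was below the WT response at 13, against 6.95% of all tested genes. Cdh1 was one of them, at 44.6, 40.9 and 88 FPKM in WT E2 and 5.99, 9.44 and 7.49 FPKM in WT ovx (-3.95 ± 0.91, adjusted p = 0.0164), called without any single library. The number was 18 without KO E2 replicate 2, 3 without WT E2 replicate 5 or WT ovx replicate 1, 4 without KO ovx replicate 4, 6 without KO E2 replicate 1, 7 without WT E2 replicate 1, and 8 without KO ovx replicate 1, WT E2 replicate 2 or WT ovx replicate 2.

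The counts of other cell type markers moved with single libraries. Of 17 smooth muscle genes 3 fell (median -1.39), with sums of 449, 418 and 561 FPKM in KO E2 against 1423, 1657 and 454 FPKM in KO ovx, where replicate 4 was as low as KO E2. The count was 12 without KO ovx replicate 4, 1 without KO E2 replicate 3, 0 without any other single library and 0 within set 3, and under quantile normalization 9 were called lower. Myh11, the smooth muscle myosin, was at 6.15, 5.78 and 7.79 against 46.1, 51 and 12.3 FPKM and did not pass (-2.08 ± 0.76, adjusted p = 0.0543). Of 8 tested adipocyte genes 2 rose, with sums of 449, 8.7 and 2464 FPKM in KO E2 and 2.44, 3.14 and 166 FPKM in KO ovx, so that KO E2 replicates 1 and 3 and KO ovx replicate 4 held adipocyte RNA. The adipocyte count was 7 without KO E2 replicate 2, 6 without KO ovx replicate 4, 0 without any other single library and 4 within set 3. The part of muscle and fat tissue in the results above was not tested. Of 12 stromal genes 1 rose and 1 fell, with a median of 0.36 that turned to -0.28 under quantile normalization, and of 14 endothelial genes 2 rose (median 0.51). No stromal or endothelial gene was called within set 3. Without KO E2 replicate 2, 6 endothelial genes were called, and 1 without KO E2 replicate 1 or 3 or KO ovx replicate 1 or 4. In WT 7 of the 14 endothelial genes fell (median -1.01), against 15.2% of all tested genes. The KO response was above the WT response at 5, against 4.05% of all tested genes. That count of 5 was 11 without KO E2 replicate 2 and 0 without KO E2 replicate 1, KO ovx replicate 4 or WT E2 replicate 1 or 5 or WT ovx replicate 1 or 2. It was 1 without KO E2 replicate 3, KO ovx replicate 1 or WT ovx replicate 3, and 3 without WT E2 replicate 2.

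Genes of glucose use rose in part. Of 22 glycolysis and hypoxia genes 15 rose and none fell (median 1.34), with 6 called without KO E2 replicate 1 or KO ovx replicate 2 and 8 where KO ovx replicate 1 was left out. Ldha, lactate dehydrogenase, was at 229.5, 157 and 140.1 FPKM against 37.5, 32.2 and 79.7 FPKM (1.88 ± 0.46, adjusted p = 0.00819), and Hk2, hexokinase 2, at 6.68, 7.58 and 4.8 against 0.474, 0.497 and 1.84 FPKM (1.98 ± 0.51, adjusted p = 0.01). The groups did not overlap, and KO ovx replicate 4 was the highest ovx library for both. Within set 3, 1 glycolytic gene rose, and Hk2 and Ldha (adjusted p from 0.107 to 0.166) lost the call. By contrast 1 of 28 nuclear genes of oxidative phosphorylation was called (median 0.13), and under quantile normalization 10 were called lower at a median of -0.43. In WT 24 of the 28 rose (median 1.22), against 32.3% of all tested genes. The KO response was below the WT response at 7, against 6.95% of all tested genes. Cox5a, a cytochrome oxidase subunit, was at 47.2, 77.6 and 64.5 FPKM in KO E2 and 33.2, 26.5 and 84.9 FPKM in KO ovx. In WT it was at 86.7, 104 and 88.8 FPKM under E2 and 6.74, 10.7 and 10.8 FPKM in ovx, a difference between responses of -2.66 ± 0.61 (adjusted p = 0.0166), lost without WT ovx replicate 1. The number of oxidative genes with a smaller KO response was 15 without KO ovx replicate 2, 9 without KO E2 replicate 3, 4 without KO ovx replicate 1 or WT E2 replicate 5, 2 without WT ovx replicate 2, 0 without WT ovx replicate 1 and 1 without KO E2 replicate 1, KO ovx replicate 4, WT E2 replicate 1 or 2 or WT ovx replicate 3.

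Genes of protein folding and amino acid supply rose in part. Of 21 genes of protein folding in the endoplasmic reticulum 8 rose and none fell (median 0.86), led by Sdf2l1, a chaperone cofactor, from 3.14, 2.92 and 3.79 to 7.56, 16.7 and 29.6 FPKM (1.97 ± 0.48, adjusted p = 0.00749). The folding count was 4 without KO E2 replicate 3 and 5 without KO ovx replicate 1 or 2, and 7 within set 3. Of 32 cell cycle genes 6 rose, a share near the 15.9% over all genes, and none fell (median 0.72), with 13 called without KO ovx replicate 4, 4 without KO E2 replicate 2 or KO ovx replicate 1 or 2, and 3 within set 3. Birc5, survivin, went from 0.709, 0.6 and 3.05 to 5.26, 6.23 and 7.19 FPKM (1.69 ± 0.34, adjusted p = 0.00199), while Mki67, the proliferation antigen Ki-67, did not pass (0.94 ± 0.52, adjusted p = 0.199). Of 20 ATF4 targets 7 rose and none fell (median 0.60), among them Trib3, a stress-induced pseudokinase (1.20 ± 0.29, adjusted p = 0.00775). The ATF4 count was 1 without KO E2 replicate 1 or KO ovx replicate 1 or 2 and 3 without KO E2 replicate 3. Within set 3 it was 4, and Birc5 and Trib3 (adjusted p from 0.0511 to 0.216) lost the call. Of 35 cytosolic ribosomal protein genes 3 rose (median 0.25), 16 were called without KO ovx replicate 4 and 0 or 1 without any other single library, and 20 were called lower under quantile normalization (median -0.46).

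Lysosomal genes, many of them targets of the MiT/TFE factors that mTORC1 controls, went both ways. Of 31 such genes 11 rose and 3 fell (median 0.43, or -0.07 under quantile normalization). Ctsk, a cathepsin, was at 142, 14.3 and 31.1 FPKM against 5.24, 5.44 and 3.07 FPKM (2.92 ± 0.70, adjusted p = 0.00688), highest in KO E2 replicate 1. Atp6v0d2, a proton pump subunit, was at 1.4, 0.344 and 1.03 against 14, 7.79 and 30.4 FPKM and fell by 3.10 ± 0.37 (adjusted p = 3.09e-05). Rragd, a GTPase that brings mTORC1 to the lysosome, was at 0.962, 0.519 and 0.659 against 8.49, 5.45 and 12.3 FPKM (-2.46 ± 0.21, adjusted p = 3.07e-06). Both were called without any single library, and in WT they were at no more than 0.314 FPKM (Atp6v0d2) and 0.455 FPKM (Rragd). The KO response was below the WT response for Atp6v0d2 (-3.30 ± 0.53, adjusted p = 0.0036), Rragd (-2.36 ± 0.29, adjusted p = 0.00141) and the sialidase Neu1 (-2.84 ± 0.44, adjusted p = 0.00351, limma). These genes were named for their fall in KO, whose values enter this difference, so the test adds no separate support. Neu1 fell in KO from 18.8, 16 and 31.9 to 10.3, 14.9 and 7.5 FPKM (-0.96 ± 0.31), a call that was lost without KO E2 replicates 1 or 3 or KO ovx replicates 1 or 4 (adjusted p from 0.0607 to 0.121), and rose in WT from 2.1, 2.53 and 2.47 to 10.6, 9.07 and 15.2 FPKM (1.88). Of the 31, 6 were called without KO E2 replicate 1 and 9 without KO E2 replicate 3 or KO ovx replicate 1, against 14 with all libraries, with 2 higher and 2 lower within set 3. The higher count went from 11 to 4 without KO E2 replicate 1, to 6 without KO E2 replicate 3 and to 7 without KO ovx replicate 1 or 2. Neu1 and Ctsk (adjusted p from 0.0783 to 0.183) lost the call within set 3. Of 23 genes of the TSC and mTOR complexes 2 rose and 4 fell (median -0.10), including Rictor, the scaffold of mTORC2, from 2.1, 1.72 and 1.78 to 0.855, 0.897 and 0.917 FPKM (-0.60 ± 0.12, adjusted p = 0.00253). The lower count was 7 without KO E2 replicate 3 and 2 without KO ovx replicate 1, and the higher count 0 without KO E2 replicate 3 and 1 without KO E2 replicate 1 or KO ovx replicate 1 or 2. Within set 3, 1 rose and 2 fell.

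Across genes, the KO and WT responses, which share no library, had a Pearson r of 0.565, where genes are not independent replicates. In WT 6599 genes were called (47.5%), 4484 higher (32.3%) and 2115 lower (15.2%), with a median difference of 0.239. Of the genes that rose in KO, 1357 also rose in WT, which is 61.3% of the KO and 30.3% of the WT list. Of those that fell, 843 fell in both, 54.2% of the KO and 39.9% of the WT list. Opposite calls were made for 20 genes that rose in KO and fell in WT and for 72 that did the reverse. The 2 responses differed at 1529 genes (11%), 563 with the KO response above (4.05%) and 966 with it below (6.95%), and 738 of the KO calls were among them. That number of 1529 depended on single libraries, at 520 without WT ovx replicate 1, 721 without WT E2 replicate 5, 733 without KO ovx replicate 4, 755 without KO E2 replicate 1, 772 without WT E2 replicate 1, 804 and 880 without WT ovx replicates 2 and 3, and 2383 without KO E2 replicate 2.

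The largest difference below WT was at Scgb3a1, a secretoglobin of mucosal secretion. It was at 3.03, 80.1 and 1.08 FPKM in KO E2 and at 301, 981 and 1472 FPKM in WT E2, with at most 2.69 FPKM in the ovx libraries (-6.77 ± 1.37, adjusted p = 0.00984). KO E2 replicate 2 was the highest KO library and still below every WT E2 library. Pdzk1ip1, a membrane adaptor, fell in KO from 88.9, 64.1 and 130.1 to 9.64, 105 and 8.14 FPKM and rose in WT from 2.27, 5.76 and 3.88 to 131, 81.6 and 83.7 FPKM (-6.43 ± 0.93, adjusted p = 0.00251), though its KO fall was lost without KO E2 replicates 1 or 3 or KO ovx replicates 1 or 4 (adjusted p from 0.0762 to 0.134) and within set 3 (adjusted p = 0.0568). Fcgbp, which encodes a mucin-like protein of mucus, was at 31.7, 155 and 0.98 FPKM in KO E2 against 739, 389.7 and 634 FPKM in WT E2 (-6.40 ± 1.66, adjusted p = 0.0263), and 9530053A07Rik followed it (-6.28 ± 1.61). The Fcgbp difference was lost without KO ovx replicate 4, WT E2 replicates 1 or 5 or WT ovx replicates 1 or 2. That of 9530053A07Rik was lost without KO ovx replicate 4, WT E2 replicates 1 or 5 or WT ovx replicates 1 or 2. Calb1 fell in KO as given above and was at 4.05, 3.5 and 9.21 FPKM in WT ovx and 27.4, 8.29 and 28.1 FPKM in WT E2 (-6.12 ± 1.47, adjusted p = 0.0193), a difference lost without KO E2 replicate 1, KO ovx replicate 4, WT E2 replicate 5 or WT ovx replicate 1. Above WT were Camp, Ngp (4.39 ± 1.10, adjusted p = 0.0229), LOC100504272, LOC100502704 and Cxcl12, a chemokine of stroma. The Ngp difference was lost without KO ovx replicate 1, WT E2 replicate 1 or WT ovx replicate 1, and that of LOC100504272 was lost without WT E2 replicate 5 or WT ovx replicate 1. Cxcl12 was at 155, 30.4 and 153 FPKM against 23.5, 23.8 and 12.7 FPKM in KO, not called (2.17 ± 0.83, adjusted p = 0.065), and went from 74, 85.7 and 85.9 to 18.3, 34.7 and 8.19 FPKM in WT (4.33 ± 1.17, adjusted p = 0.0306), a difference called in 4 of the 12 single-library omissions, those of KO E2 replicate 2, KO ovx replicates 1 and 2 and WT E2 replicate 2. LOC100502704 rested on KO E2 replicate 3 (10.1, 9.19 and 333 against 1.1, 0.904 and 0.224 FPKM, 4.57 ± 1.38), and its difference was called in 4 of the 12 single-library omissions, those of KO E2 replicates 1, 2 and 3 and WT E2 replicate 2. The differences of Scgb3a1, Pdzk1ip1 and Camp were called in all 12 omissions.

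**Figure D5:**
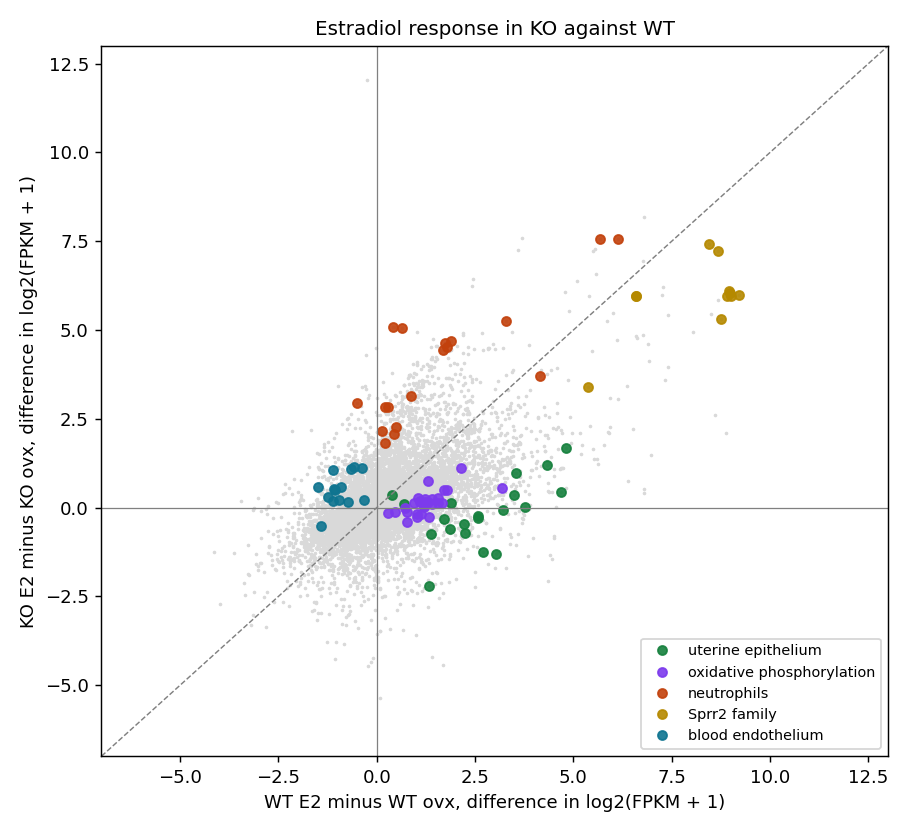
Each tested gene by its WT response (horizontal) and KO response (vertical), both as differences in log2(FPKM + 1), with members of 5 lists in color and the dashed line of equal response. Most epithelial and oxidative phosphorylation genes lie below the line and most neutrophil and endothelial genes above it, while Sprr2 genes rose in both genotypes.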

How the data were processed

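RNA from uterine cross sections was sequenced from 18 libraries in 6 groups of 3 (TruSeq stranded mRNA, single-end, per the labels' protocols). The authors deposited 1 table of FPKM values per gene, made with Cufflinks 2.0.2 per the submitters' processing notes. The aligner, annotation and build are not given in the sources used here. This unit scales a library to its own total, so a few very abundant genes can lower all others, and it holds no read counts, so no count test or counting interval is given. Log2(FPKM + 1) values of genes at 1 FPKM or more in at least 3 libraries were fitted with limma 3.58.1 (R 4.3.3), 1 mean per group with a trended prior. Tests were two-sided with Benjamini-Hochberg adjustment over all tested genes at 0.05, and the procedure was tested on simulated data. Named genes were the 15 largest differences each way among called genes with a mean of at least 5 FPKM in 1 group and no overlap, the 5 largest genotype differences each way, and members of 51 gene lists, of whose 885 entries 879 were in the table and 764 were tested. The comparison and the lists were chosen with earlier results of these data known. Alternatives were other pseudocounts, filters, scalings and sample sets, array weights, no trend, a replicate block, a term for the set of libraries and single libraries left out. Leaving out KO E2 replicate 2 with KO ovx replicate 4, and the alternatives for WT, were chosen after seeing the data.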

Additional observations from a re-analysis of the deposited data

Results flagged for a closer look

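For the genes below, the change with estradiol differed between KO and WT by the test of the difference itself (limma, adjusted p under 0.05 over all tested genes), and each value is the KO response minus the WT response on the log2(FPKM + 1) scale. Genes named for the size of their KO change were chosen on values that enter this difference, so for them it is no separate support. Among leukocyte genes the KO response was above for Camp (4.67), Ngp (4.39), Mmp9 (3.46), Csf1r (2.77), Csf3r (2.26), Elane (2.01), Ear1 (2.15) and Ear2 (2.14). Among matrix, signaling and transport genes it was above for Cxcl12 (4.33), Fn1 (3.28), Thbs2 (3.13), Tgfb1 (1.24), Ptges (3.25), Rbp4 (2.32), Fxyd5 (3.03) and LOC100502704 (4.57). The value of LOC100504272, 12.3, rests on 3 KO ovx libraries listed at 0 and is no fold.

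Among genes of secretion and epithelium the KO response was below for Scgb3a1 (-6.77), Pdzk1ip1 (-6.43), Fcgbp (-6.40), 9530053A07Rik (-6.28), Muc1 (-4.26), Cdh1 (-3.95), Cldn3 (-3.55), Wfdc2 (-3.32) and Krt8 (-3.15). Transcription factors and signaling genes with a KO response below that of WT were Msx1 (-4.23), Tcfcp2l1 (-4.13), Pax8 (-3.33), Sox17 (-2.30), Emx2 (-1.62), Gata2 (-1.16), Erbb2 (-1.68) and Tgfa (-1.45). Enzymes with a response below were Sult1d1 (-5.61), Hpgds (-4.58), Cyp26a1 (-4.21), Cyp4a12a (-3.55), Cyp4a12b (-3.55), Cdkl1 (-3.19), Ckb (-3.02), Neu1 (-2.84), Car4 (-2.39) and Cox5a (-2.66). The same held for Calb1 (-6.12), Fxyd2 (-5.43), Slc5a11 (-4.13), Atp6v0d2 (-3.30) and Rragd (-2.36).

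Of these 49 genes 25 kept the difference in all 12 fits that left out 1 KO or WT library. Msx1, Ptges and Cox5a kept it in 11, LOC100504272 in 10, Ngp in 9, Calb1, Ckb, Cldn3 and Thbs2 in 8, and Fcgbp and 9530053A07Rik in 7. Cxcl12, Tgfb1, Tgfa and LOC100502704 kept it in 4, Ear1, Ear2, Rbp4 and Sox17 in 3, and Muc1, Krt8, Fn1, Emx2 and Gata2 in 2. With the replicate block 13 of the 49 were called, and over all tested genes the number fell from 1529 to 136.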

How the results depend on the processing

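The number of genes called between KO E2 and KO ovx (3767, with 2213 higher and 1554 lower) was 1961 (1412 and 549) with a filter of 5 FPKM, 1786 (1170 and 616) in a fit on the 6 KO libraries alone, 6566 (3865 and 2701) with array weights and 1642 (1276 and 366) within set 3. Lower calls numbered 2955 under quantile normalization and 878 with a term for the set. Leaving out 1 library gave 2370 to 4326 calls, 1453 to 2696 higher and 917 to 1718 lower.

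The response differed between genotypes at 1529 genes (563 with the KO response above and 966 below). This was 887 (170 above) with a filter of 5 FPKM, 3940 (1743 and 2197) with array weights and 236 (163 and 73) within set 3. Genes above numbered 347 with a pseudocount of 0.1, 1065 under quantile normalization and 891 without KO E2 replicate 2 and KO ovx replicate 4 together. Leaving out 1 library gave 520 to 2383 genes, 227 to 1138 above and 293 to 1245 below. WT calls numbered 4042 with a filter of 5 FPKM and 4889 to 5945 without 1 library.

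KO E2 and KO ovx share the replicate numbers 1 and 2, but the deviations of same-numbered libraries did not go together (r = -0.0373 and -0.108 over 13898 genes), so the numbers were not taken to pair the samples. With the replicate block 2653 genes rose and 1753 fell, and the genotypes differed at 136 (31 above and 105 below). Of the 108 genes named with a call in KO, 95 kept it without any single library and 0 turned direction under any alternative; 56 lost it within set 3, 23 in the fit on the KO libraries alone, 11 with the set term and 8 with the replicate block. Of 63 counts of list members called, 47 moved by more than 1.5 times within set 3 and 19 with the replicate block, and 3 stayed within 1.5 times under every alternative. FPKM without counts limits all of these to the spread between 3 libraries per group, and in KO the set of libraries and the hormone state are partly confounded.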

Other observations

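Other signaling and metabolic lists are read against shares of 15.9% higher and 11.2% lower over all tested genes. Among 6 tested genes of the EGF family, whose ligands pass estrogen signals between stroma and epithelium, Tgfa fell from 3.12, 1.97 and 5.29 to 0.195, 0.692 and 1.46 FPKM (-1.32 ± 0.29, adjusted p = 0.00377, limma). Erbb2, a receptor of this family, fell from 5.06, 4.39 and 7.52 to 1.3, 2.5 and 1.75 FPKM (-1.22 ± 0.25, adjusted p = 0.00251), Nrg1 was called higher, and the other 3 were not called. The Nrg1 call was made neither within set 3 (adjusted p = 0.604) nor without KO E2 replicate 1 or any single KO ovx library. Neither Tgfa nor Erbb2 groups overlapped, and the Erbb2 response was below that of WT (-1.68 ± 0.35, adjusted p = 0.0115). Tgfa and Erbb2 (adjusted p from 0.0853 to 0.207) lost the call within set 3. Of 18 prostaglandin genes 4 rose and 2 fell, 1 without KO E2 replicate 2 or KO ovx replicate 1 or 4. Ptges, a synthase of prostaglandin E2, went from 0.604, 0.765 and 0.806 to 29.5, 1.7 and 10.9 FPKM (2.53 ± 0.55, adjusted p = 0.00356), highest in KO E2 replicate 1, and above the WT response (3.25 ± 0.77, adjusted p = 0.0184), a difference lost without WT ovx replicate 1. The Ptges call in KO was lost within set 3 (adjusted p = 0.0929). Ptgs2, the inducible cyclooxygenase, was at 12.7, 1.23 and 0.36 against 0.0514, 0.0293 and 0.386 FPKM, overlapping and not called (1.60 ± 0.59, adjusted p = 0.0583). Of 17 retinoid genes 3 rose and 1, Cyp26a1, fell. Rbp4, the retinol carrier, went from 2.69, 1.48 and 2.4 to 4.18, 10.3 and 20 FPKM (1.77 ± 0.46, adjusted p = 0.0111), highest in KO E2 replicate 3.

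None of 17 immediate-early genes was called (limma). Fos, a subunit of AP-1, was at 98, 24 and 7 FPKM in KO E2 and 4, 1.67 and 304 FPKM in KO ovx (0.76 ± 1.89, adjusted p = 0.794). KO ovx replicate 4 was the highest of the 6 libraries, and in WT ovx the values were 3.26, 1.83 and 505 FPKM, so that 1 library in each of these ovx groups stood far above the rest. Of 23 sterol and fatty acid genes 3 rose, while 0 were called without KO ovx replicate 1 or 2 and 1 without KO ovx replicate 4. Of 12 IGF axis genes 1 fell (3 were called without KO E2 replicate 2 and 2 without KO E2 replicate 1), and Igf1 itself was not called (0.89 ± 0.46, adjusted p = 0.167). The eosinophil genes Ear1 and Ear2, near-identical copies, rose (1.34 ± 0.44 and 1.34 ± 0.44), with adjusted p = 0.325 and 0.314 within set 3, 0 of the 3 tested eosinophil genes were called without KO E2 replicate 3 or KO ovx replicate 1 or 4, and none of 5 mast cell genes was called. Of 7 tested gland genes 2 fell, Spink3 and Pax8, a number that was 0 without KO E2 replicate 1 or 3 and within set 3 (Pax8 adjusted p = 0.0709). Among further tissue markers, 2 of 5 tested skeletal muscle genes were lower, 1 of 4 neural genes higher, 1 of 7 mesothelial genes higher and 1 of 3 ciliated cell genes lower.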
